A study of Mus musculus with 6 samples.

Results

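The enzymes described here carry out mitochondrial fatty acid oxidation, and their transcripts were followed in the adrenal glands of 2 mouse strains. BPH mice ("Blood Pressure High") are hypertensive and BPL mice ("Blood Pressure Low") are hypotensive. The comparison addressed here is that of the strains. RNA was hybridised to Affymetrix MG_U74Av2 arrays, 3 arrays per strain, on which each transcript is read by probe sets, groups of short complementary sequences. Age, sex, treatment and the number of animals per array are not given in the sources used here, nor whether the arrays of a strain came from separate animals, so the p-values measure the spread between these arrays, which may be technical. The members were chosen by name: every probe set whose annotation names exactly 1 gene, where that gene is Acadm, Acadl, Acadvl, Acads, Hadh, Hadha, Cpt1b, Cpt2, Acaa2 or Etfdh. This gave 11 of the 12488 probe sets, for 8 of the 10 genes. Hadha and Cpt1b had no such probe set, so their levels were not analysed here.

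Fatty acids enter the mitochondrion as carnitine esters, made by the CPT1 enzymes at the outer membrane, carried inward by the translocase Slc25a20 and turned back into acyl-CoA by CPT2. A cycle of reactions then cuts off acetyl-CoA, catalysed in turn by an acyl-CoA dehydrogenase specific for chain length, a hydratase, a hydroxyacyl-CoA dehydrogenase and a thiolase. Electrons from the dehydrogenases pass through the electron transfer flavoprotein and its dehydrogenase ETFDH to the respiratory chain. Brown fat, which lies close to the adrenal and kidney in rodents, burns fatty acids for heat through the uncoupling protein UCP1.

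The deposited values were intensities on a linear scale, already brought to a common level by the authors, with array medians between 1003.5 and 1114.7. Of the 11 member probe sets, 8 for 7 genes were bright enough to be tested, among 7293 tested in all. The arrays were not washed together. The 3 BPL arrays shared a fluidics run on station 1, BPH 1 and BPH 2 shared a run on station 2, and BPH 3 was washed on station 1 in a run of its own. Every run held 1 strain, so run and strain cannot be told apart. Skeletal muscle transcripts stood out on 1 array of each strain. The mean log2 intensity of 18 muscle markers was 12.50 on BPH 1 and 12.86 on BPL 2, against 9.29 to 10.26 on the other 4 arrays. Log2 differences are given as BPH minus BPL throughout, a negative value meaning less in BPH, and a probe set was called at a limma p under 0.05 after Benjamini-Hochberg adjustment over all 7293.

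No member probe set passed that threshold, in either direction, although 5 of the 8 lay higher on all 3 BPL arrays than on any BPH array. These 5 belonged to Cpt2, Hadh, Acaa2, Etfdh and Acads. By mean log2 intensity, the BPL level of each was between 1.57 and 2.09 times the BPH level. Acadm, Acadl and another probe set of Acads overlapped between the strains. In limma 0 of the 8 were called, where 0.960% of all tested probe sets were called lower in BPH. At an unadjusted p under 0.05, 5 of the 8 were lower in BPH, against 8.50% of all tested probe sets. All 3 BPL arrays lay above all 3 BPH arrays for 11.6% of all tested probe sets, and 46.7% had a negative difference, against 7 of the 8 members. The median difference was -0.66 over the 8 and 0.03 over all tested probe sets.

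Cpt2 releases acyl groups from carnitine inside the mitochondrion, the last step of import. Its intensity was 14879, 12196 and 12983 on BPH 1, 2 and 3 and 21999, 33094 and 19703 on BPL 1, 2 and 3. The strains did not overlap, and BPL 2 was the highest array. The BPH mean was 13350 ± 1379 and the BPL mean 24930 ± 7161 (SD, n = 3 each). The mean log2 intensities differed by -0.87 (SE 0.19, limma adjusted p = 0.0539), or 1.83-fold more in BPL. Another Cpt2 probe set, 161978_r_at, gave 29.6 to 155.9 on the 6 arrays. All of these values lay under 201.3, the floor below which intensities were treated as equal, so it carries no comparison.

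The acyl-CoA dehydrogenases, which begin the cycle, gave unlike values. Acads, the short-chain enzyme, is read by 2 tested probe sets. At 103401_at the intensity was 3319, 3662 and 4050 on BPH 1, 2 and 3 and 5391, 8098 and 5803 on BPL 1, 2 and 3. These values did not overlap between strains and differed by -0.79 (SE 0.17, limma adjusted p = 0.0521). At 161469_r_at the intensity was 5073, 5891 and 6939 on BPH 1, 2 and 3 and 6743, 7333 and 6186 on BPL 1, 2 and 3. Here BPH 3 lay above BPL 1 and BPL 3, and the difference was -0.19 (SE 0.15, limma adjusted p = 0.514). In Affymetrix naming the suffix _r marks a probe set chosen under relaxed rules. Which of the 2 follows the Acads transcript was not tested.

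Acadm, the medium-chain dehydrogenase, was the 1 member with a positive difference. Its intensity was 49154, 37695 and 39255 on BPH 1, 2 and 3 and 33776, 45916 and 29717 on BPL 1, 2 and 3. The 2 highest arrays, BPH 1 and BPL 2, are those with skeletal muscle transcripts, whose part in the Acadm values was not tested. The difference was 0.22 (SE 0.18, 95% confidence interval -0.19 to 0.63, limma adjusted p = 0.544), and 0.28 without those 2 arrays.

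Acadl, the long-chain dehydrogenase, had 10046, 9152 and 8719 on BPH 1, 2 and 3 and 10186, 18705 and 7048 on BPL 1, 2 and 3. The BPL arrays lay on both sides of the BPH arrays, with BPL 2 far above and BPL 3 the lowest of all 6. The difference was -0.25 (SE 0.30, 95% confidence interval -0.92 to 0.42, limma adjusted p = 0.685), and its sign turned without BPL 2 (0.13) and without BPH 1 and BPL 2 together (0.08).

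Acadvl, the very-long-chain dehydrogenase of the inner membrane, could not be followed. Its probe set 93334_at gave 233.6, 183.4 and 172.6 on BPH 1, 2 and 3 and 105.0, 51.0 and 40.8 on BPL 1, 2 and 3. Only BPH 1 exceeded the floor of 201.3. The other, 161623_at, gave 32.3 to 70.7 in BPH and 54.3 to 254.7 in BPL, with only BPL 2 above the floor. At 93334_at every BPH value lay above every BPL value, but 5 of 6 values at each probe set were under the floor. Neither was tested, and no direction is given for this gene.

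Hadh, which oxidises short and medium hydroxyacyl-CoA in the matrix, had 26715, 21470 and 23391 on BPH 1, 2 and 3 and 34604, 45669 and 32901 on BPL 1, 2 and 3. The strains did not overlap, and the difference was -0.65 (SE 0.16, limma adjusted p = 0.0701). Acaa2, the matrix thiolase that closes the cycle, had 90435, 70482 and 73323 on BPH 1, 2 and 3 and 113901, 165288 and 100189 on BPL 1, 2 and 3. BPH 1 came close to BPL 3 without reaching it, and the difference was -0.67 (SE 0.20, limma adjusted p = 0.117).

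Etfdh, which hands the electrons of every acyl-CoA dehydrogenase to ubiquinone, had the widest gap of the members. Its intensity was 4863, 4260 and 6421 on BPH 1, 2 and 3 and 8829, 16409 and 8441 on BPL 1, 2 and 3. The BPH mean was 5181 ± 1115 and the BPL mean 11230 ± 4492 (SD, n = 3 each). The mean log2 intensities differed by -1.07 (SE 0.26, limma adjusted p = 0.0721), or 2.09-fold more in BPL. The SD was larger in BPL than in BPH for 7 of the 8 tested member probe sets, the exception being Acads 161469_r_at (935.6 in BPH and 573.2 in BPL). These are SDs of linear intensities, and BPL 2 was the highest BPL array in all 8. The share of all tested probe sets with a larger SD in BPL was not counted.

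**Figure D1:**
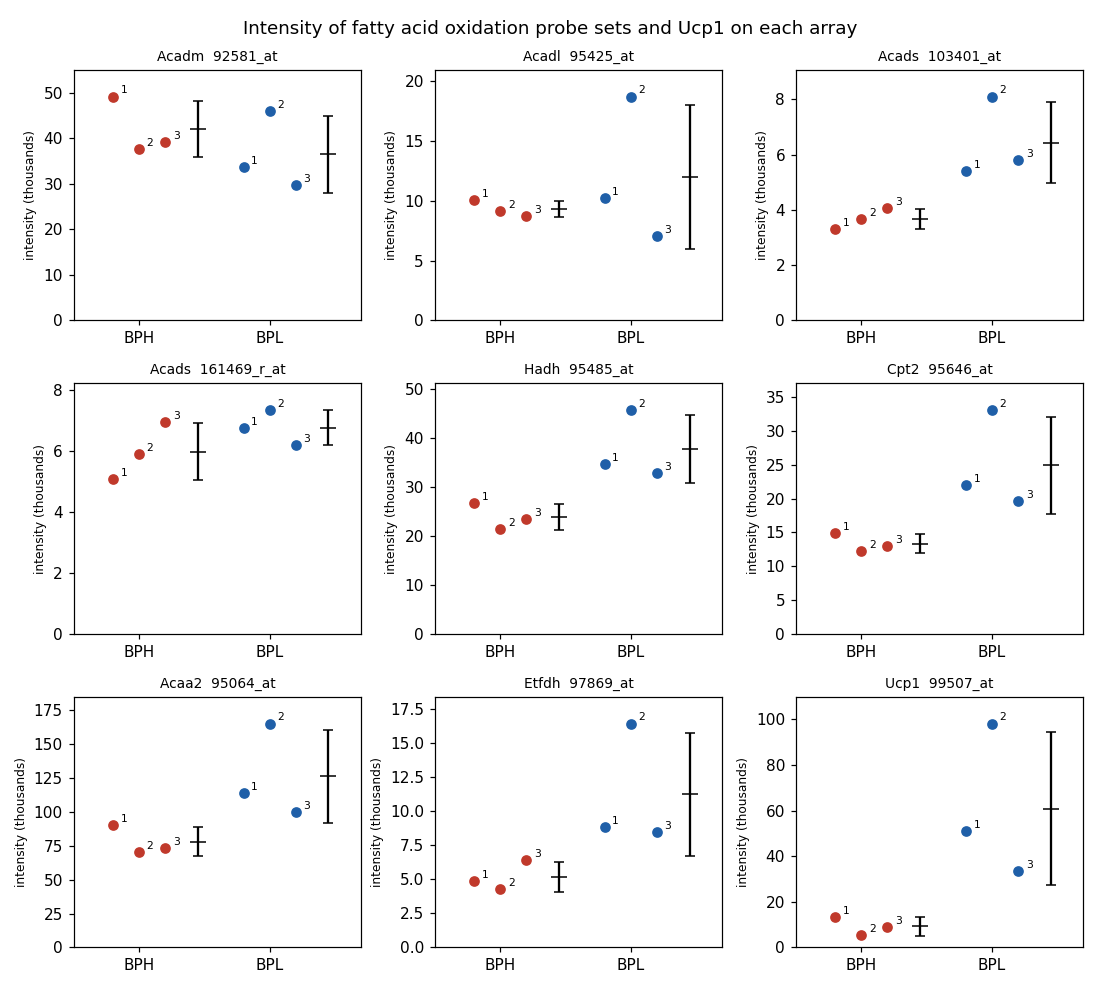
Intensity divided by 1000 (vertical axis, linear, from 0) of the 8 tested member probe sets and of the brighter Ucp1 probe set, by strain. Points are arrays with their replicate number, and the bar beside them is the mean ± SD of 3 arrays. For Cpt2, Hadh, Acaa2, Etfdh, Acads 103401_at and Ucp1 every BPL point lies above every BPH point, and BPL 2 is the highest BPL array in all 9 panels.

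Adjusted p-values of the 5 non-overlapping probe sets lay between 0.0521 and 0.117, so the calls depended on single arrays. Without BPL 3 the member calls numbered 4, namely Cpt2 (-1.02, limma adjusted p = 0.0267), Etfdh (-1.24, 0.0451), Hadh (-0.74, 0.0473) and Acads 103401_at (-0.85, 0.0485). Calls over all 7293 probe sets rose as well, from 184 (70 lower in BPH) to 361 (159 lower in BPH). Without BPL 2 the only member called was Cpt2, at a smaller difference (-0.65, limma adjusted p = 0.0401). It was also the only member called without BPH 1 and BPL 2, the arrays with muscle transcripts (-0.73, limma adjusted p = 0.0358). Over all 7293 probe sets 153 were called without BPL 2 and 123 without BPH 1 and BPL 2. Without BPH 1, BPH 2, BPH 3 or BPL 1 no member was called. Within station 1, where BPH 3 alone faced the 3 BPL arrays, the differences were -0.90 for Cpt2, -0.67 for Hadh, -0.75 for Acaa2, -0.74 for Etfdh and -0.64 for Acads 103401_at, and none was called. For Etfdh the station value is closer to 0 because BPH 3 was its highest BPH array.

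**Figure D2:**
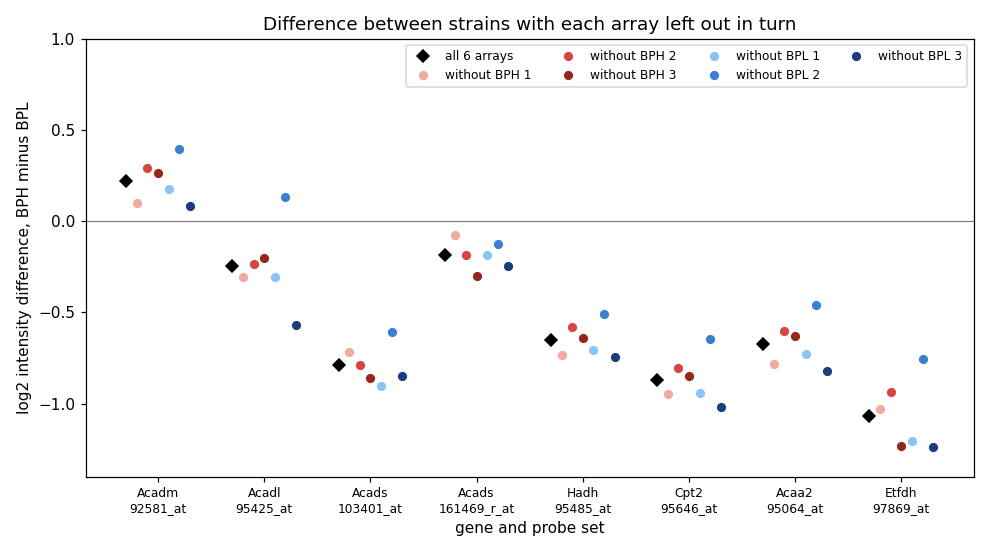
Log2 intensity difference, BPH minus BPL (vertical axis), for each tested member probe set (horizontal axis) with all 6 arrays (black diamonds) and with each array left out in turn (coloured circles). Cpt2, Hadh, Acaa2, Etfdh and Acads 103401_at stay below 0 throughout, Acadm stays above 0, and Acadl crosses 0 without BPL 2 (0.13).

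Promoters are shown for 2 members that did not overlap between strains, Cpt2 and Etfdh, and for Acadm, which did, beside Ucp1. The part of promoter sequence in the array values was not tested. Each line is the 250 bases before the annotated start, written 5′ to 3′ on the gene's strand, from RefSeq on GRCm38.p6. The windows are chr4:107923590-107923839, minus strand for Cpt2, chr3:79628768-79629017, minus strand for Etfdh, chr3:153944644-153944893, minus strand for Acadm and chr8:83290098-83290347, plus strand for Ucp1. Capitals mark AGGTCA on either strand, the half-site that nuclear receptors such as the PPAR, RXR and estrogen-related receptors recognise.
Cpt2: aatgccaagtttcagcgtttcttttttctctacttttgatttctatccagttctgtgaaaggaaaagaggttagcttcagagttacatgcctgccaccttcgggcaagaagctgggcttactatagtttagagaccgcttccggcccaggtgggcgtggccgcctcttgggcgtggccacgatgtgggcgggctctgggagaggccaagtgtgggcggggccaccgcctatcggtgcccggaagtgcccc
Etfdh: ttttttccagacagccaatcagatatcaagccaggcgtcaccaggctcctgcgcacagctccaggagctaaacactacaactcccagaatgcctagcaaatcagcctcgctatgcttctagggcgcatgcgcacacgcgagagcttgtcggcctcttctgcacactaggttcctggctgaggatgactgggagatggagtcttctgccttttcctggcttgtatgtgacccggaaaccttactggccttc
Acadm: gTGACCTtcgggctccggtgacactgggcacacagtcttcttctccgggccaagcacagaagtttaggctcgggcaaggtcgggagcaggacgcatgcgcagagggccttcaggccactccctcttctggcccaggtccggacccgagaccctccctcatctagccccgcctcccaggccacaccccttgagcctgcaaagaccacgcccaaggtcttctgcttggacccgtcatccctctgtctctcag
Ucp1: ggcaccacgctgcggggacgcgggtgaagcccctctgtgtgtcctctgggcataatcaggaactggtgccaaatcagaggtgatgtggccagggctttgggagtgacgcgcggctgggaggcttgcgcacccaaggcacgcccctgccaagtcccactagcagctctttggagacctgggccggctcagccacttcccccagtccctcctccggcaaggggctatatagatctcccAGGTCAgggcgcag

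Of the 10 genes, 8 had a promoter in the RefSeq table, and Acaa2 and Cpt1b had none. Hadha is among the 8, although it had no member probe set. AGGTCA was found in 2 of these 8, Acadm and Acadvl, and in 14.0% of the 32851 promoter windows of the same length. In Acadm it lies on the opposite strand, 249 to 244 bases before the start, and in Ucp1 on the gene's strand, 14 to 9 bases before it. The longer motif TNAAGGTCA, an extended half-site of the estrogen-related receptor type, was found in 0 of the 8 and in 1.14% of all windows. The direct repeat of AGGNCA with 1 base (N) between its copies, of the type bound by PPAR with RXR, was found in 0 of the 8 and in 0.338% of all windows. Both strands were searched, and a match to either longer motif can overlap one to AGGTCA. The windows of Cpt2 and Etfdh hold none of these letters, which says nothing about binding elsewhere. G or C stood at 56.8% of positions in Cpt2, 54.4% in Etfdh, 64.0% in Acadm and 64.8% in Ucp1.

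The order of the arrays was then set against Ucp1, whose brighter probe set, 99507_at, had 13301, 5336 and 8870 on BPH 1, 2 and 3 and 51083, 98187 and 33362 on BPL 1, 2 and 3. Ucp1 was called lower in BPH (-2.69, SE 0.41, limma adjusted p = 0.0137), short of a threshold of 0.01. The call ended without BPH 2 (limma adjusted p = 0.0593), without BPH 3 (0.0658) and with no filter (0.173). Blocking on station and within station 1, where BPH 3 is the only BPH array set against BPL, Ucp1 differed by -2.63 and was not called. In BPL its arrays ran from BPL 2 through BPL 1 to BPL 3, and 7 of the 8 member probe sets ran in that order, against 17.7% of all other tested probe sets. The exception was Acads 103401_at, where BPL 3 exceeded BPL 1. BPL 2 was the highest BPL array in all 8, against 30.3%. In BPH the Ucp1 order was BPH 1, BPH 3, BPH 2, and Acadm, Hadh, Cpt2 and Acaa2 followed it, 4 of 8 against 15.0%. The highest Ucp1 array of each strain, BPH 1 and BPL 2, was also that with skeletal muscle transcripts. The part of muscle in the shared order was not tested. The order of all 6 arrays was that of Ucp1 for Hadh, Cpt2 and Acaa2, 3 of 8 against 1.34%. These counts are descriptions, since the members share their arrays, and the other Ucp1 probe set, 161422_f_at, itself ordered the BPH arrays as BPH 1, BPH 2, BPH 3.

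The members varied over a narrower range than Ucp1. From BPL 3 to BPL 2 Ucp1 differed by 1.56 on the log2 scale, Acadl by 1.41, Etfdh by 0.96, Cpt2 by 0.75, Acaa2 by 0.72, Acadm by 0.63, Hadh by 0.47, Acads 103401_at by 0.48 and Acads 161469_r_at by 0.245. BPL 3, the BPL array with the least Ucp1, still lay above the BPH mean by 0.73 for Etfdh, 0.66 for Acads 103401_at, 0.57 for Cpt2, 0.47 for Hadh, 0.37 for Acaa2 and 0.064 for Acads 161469_r_at. For Acadm and Acadl the same array lay below the BPH mean, by -0.49 and -0.40. Acadm thus followed the order of Ucp1 within both strains, but not between them.

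**Figure D3:**
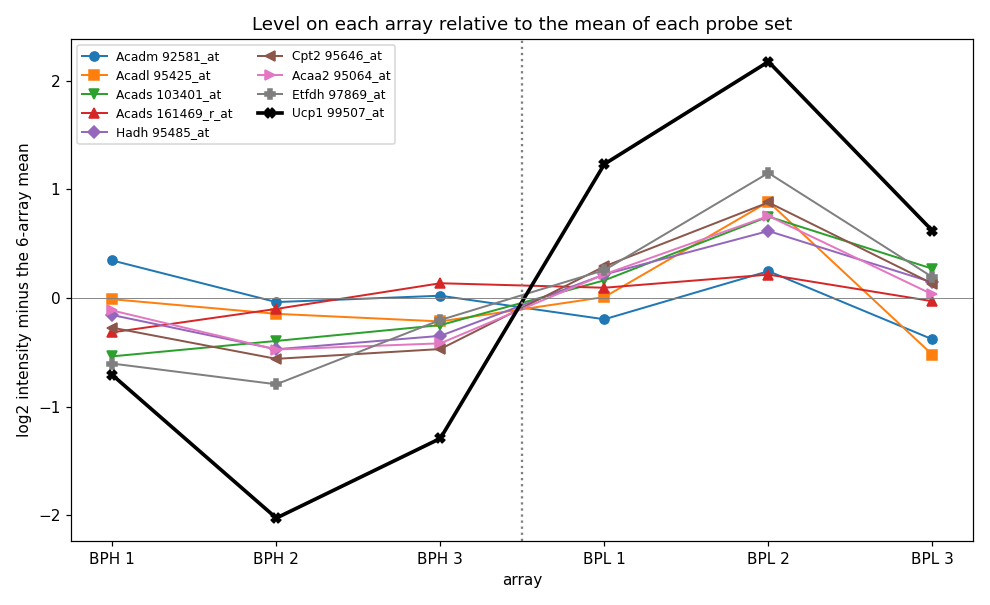
Log2 intensity minus the 6-array mean of the probe set (vertical axis) on each array (horizontal axis), for the 8 member probe sets and Ucp1 (black). Lines only join the values of a probe set, as the arrays of a strain have no order. Ucp1 spans the widest range, BPL 2 is the highest BPL array for every probe set, and Acadm and Acadl on BPL 3 lie below their BPH values.

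Markers of other tissues were read on the same arrays. Of 12 brown fat markers 10 had a probe set and 7 were tested. All 7 had a negative difference, against 45.2% of all tested genes, and their median was -1.47. In limma 2 were called lower, Ucp1 and Ucp3, against 0.900% of all tested genes. Dio2 and Fabp3 overlapped between the strains. The summed intensity of the 10 was 40606 to 69242 on the BPH arrays and 106351 to 313983 on the BPL arrays, highest on BPL 2. Ucp1, Cidea and Cox8b were the brightest of the 10 on every array, so Ucp1 itself feeds this sum. None of the 10 was under the floor on all arrays. Of those not tested, Zic1 was under it on 5 arrays, Elovl3 on 4 and Ppargc1a on 1. Their means were higher in BPL for Elovl3 and Ppargc1a and higher in BPH for Zic1. Of 9 general adipocyte markers tested, 8 had a negative difference, against 45.2% of all tested genes, with a median of -0.375. Only Lipe was called lower. Retn, not called, stood the other way (0.58), with every BPH array above every BPL array. The summed intensity overlapped, with 127883 to 158124 in BPH and 129462 to 237095 in BPL, and Adipoq and Lpl were its brightest genes. Adrenal cortex markers had a median difference of 0.05 over 8 genes, and their summed intensity was 665622 to 779526 in BPH and 668903 to 734310 in BPL. Of the 8 tested adrenal medulla markers only Penk was called, higher in BPH, where 1.53% of all tested genes were. The 8 markers summed to 252484 to 311385 in BPH and 137705 to 275683 in BPL. Their median difference was 0.69, with 0 of 8 negative, opposite in sign to the members' -0.66. The overlap of the sums came from BPL 3 (275683), as BPL 1 and BPL 2 (201662 and 137705) lay below every BPH array. The part of this shift in the member values was not tested either. Kidney and liver markers each had 1 tested gene, and their summed intensities were at most 3673 and 1691. The part of brown fat, adipocyte or muscle transcripts in the member values was not tested. In RNA from glands, fewer cells of a type and less RNA per cell cannot be told apart.

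The wider pathway was read through a list of 65 genes, the 10 members included, each by its brightest tested probe set. Of the 65, 45 had a probe set and 42 were tested. In limma 4 were called lower in BPH and 0 higher, where 0.900% of 5555 tested genes were called lower and 1.53% higher. Ucp1 and Ucp3, which are also on the brown fat list, were among these 4. The list was chosen with earlier results of these data known, so its counts are descriptions. At an unadjusted p under 0.05, 23 of 42 were lower and 3 higher, against 8.10% and 11.2% of all genes. A negative difference was found in 35 of 42, against 45.2%, and all BPL arrays lay above all BPH arrays in 23, against 11.1%. The median was -0.56 for the list, -0.56 for its 35 tested genes outside the members, and 0.04 for all tested genes. The count was 1 after leaving out either BPH 1 or BPL 1, 0 after leaving out either BPH 2 or BPH 3, and 18 after leaving out BPL 3. Over the whole table, leaving out BPL 3 raised the calls from 184 to 361 of 7293 probe sets. The fit that blocks on station and the fit to station 1 alone, in both of which BPH 3 is the only BPH array set against BPL, gave 0 calls. The list's median was -0.56 in both.

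None of the 4 called genes encodes an enzyme of the cycle itself. They were the uncoupling proteins Ucp1 and Ucp3 (-1.71, SE 0.28, limma adjusted p = 0.0178), the acyl-CoA thioesterase Acot1 (-1.34, SE 0.26, limma adjusted p = 0.0331) and the long-chain acyl-CoA synthetase Acsl5 (-1.12, SE 0.24, limma adjusted p = 0.0479). Acsl5, which activates fatty acids, had 3260, 3281 and 3007 on BPH 1, 2 and 3 and 6384, 10419 and 4956 on BPL 1, 2 and 3, with no overlap. Acot1, Acsl5 and Ucp3 each lost the call when BPH 1, BPH 2, BPH 3 or BPL 1 was left out, with differences of -1.24 to -1.44, -1.08 to -1.18 and -1.65 to -1.75. Acsl5 also lost it when the arrays were scaled to one median (-1.09, limma adjusted p = 0.0585). Acot1 also lost it without BPL 2 (-1.11), and Acot1 and Acsl5 lost it without both arrays with muscle transcripts (-1.02 and -0.84), while Ucp3 was then still called (-1.44, limma adjusted p = 0.0344).

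None of the 7 partner genes looked at beside the members was called. Hadhb, the thiolase subunit of the trifunctional protein, had 29833, 22792 and 26438 on BPH 1, 2 and 3 and 45849, 68553 and 39797 on BPL 1, 2 and 3. The strains did not overlap, and the difference was -0.93 (SE 0.20, limma adjusted p = 0.0521). The carnitine translocase Slc25a20 differed by -1.04 (limma adjusted p = 0.0722), the flavoprotein subunits Etfb and Etfa by -0.85 (0.0564) and -0.49 (0.215), the dienoyl-CoA reductase Decr1 by -0.77 (0.138) and the enoyl-CoA hydratase Echs1 by -0.41 (0.191). A dimmer Etfb probe set gave -0.06. Cpt1a, the carnitine palmitoyltransferase of the outer membrane that gates entry, stood the other way. Its intensity was 25991, 24408 and 25583 on BPH 1, 2 and 3 and 19632, 14338 and 23533 on BPL 1, 2 and 3, lowest on BPL 2. The strains did not overlap, and the difference was 0.43 (SE 0.17, limma adjusted p = 0.223). Pccb (0.59), a subunit of propionyl-CoA carboxylase, and the acyl-CoA synthetase Acsl4 (0.35) were the other 2 higher in BPH at an unadjusted p under 0.05, and are named after their values were seen. A dimmer tested Acsl4 probe set gave -0.03, with the strains overlapping.

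**Figure D4:**
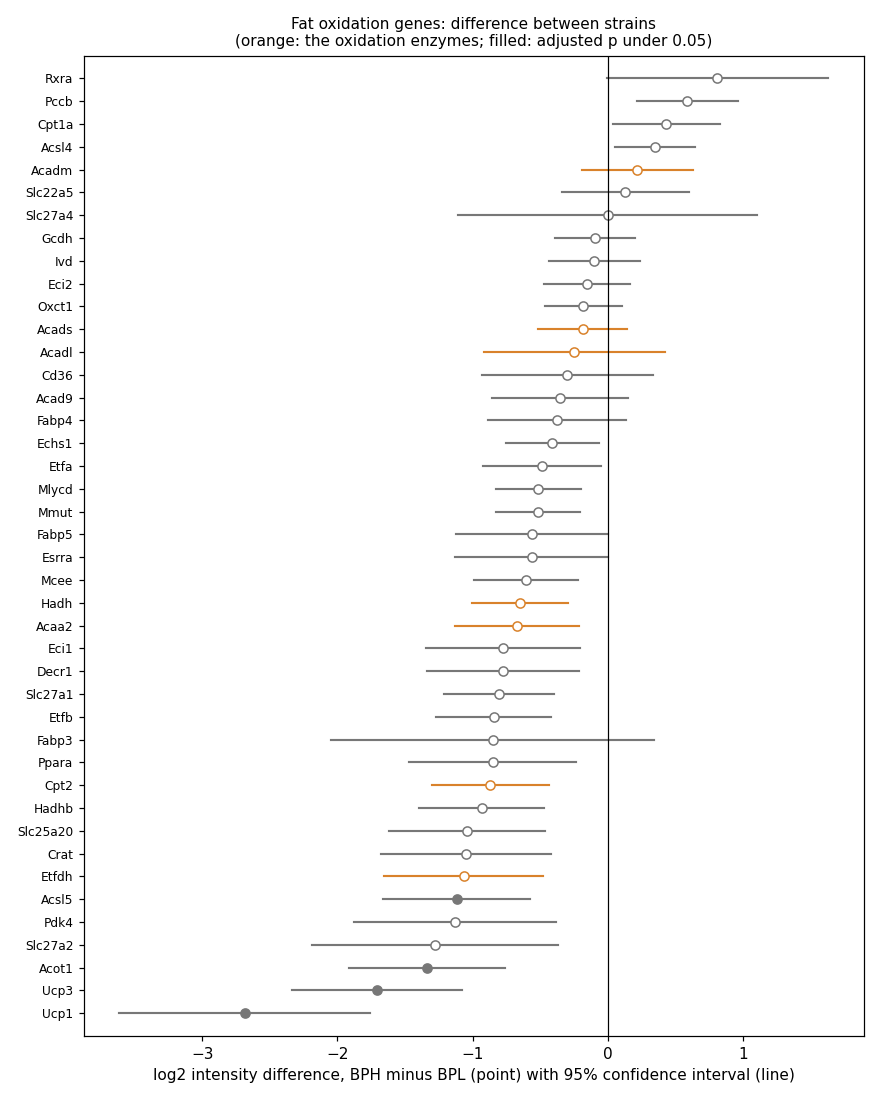
Log2 intensity difference, BPH minus BPL (horizontal axis), with 95% confidence intervals for the 42 tested genes of the fat oxidation list, each by its brightest tested probe set and ordered by the difference. Orange marks the members and filled points the 4 called genes; Acads is shown by 161469_r_at (-0.19), Etfdh has the lowest member value (-1.07) and Acadm the highest (0.22).

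The mean log2 intensity of the 7 tested member genes was 14.07, 13.86 and 14.01 on BPH 1, 2 and 3 and 14.36, 14.91 and 14.17 on BPL 1, 2 and 3. The genes outside the members whose arrays were most like it were Cox5b (Pearson r = 0.997), a subunit of cytochrome c oxidase, 1190005I06Rik (0.996), the complex I subunit Ndufb9 (0.996), Ahcyl1 (0.996), the mitochondrial acyl carrier protein Ndufab1 (0.995) and the complex I subunit Ndufb10 (0.994). This r is a description over 6 arrays of 2 strains, so a difference between the strains and the height of BPL 2 both feed it. Of 5548 genes compared, 134 had r above 0.95. The differences of the 6 ran from -0.76 for 1190005I06Rik to -0.28 for Ahcyl1, and none was called.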

How the data were processed

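The authors deposited linear intensities, 1 for each probe set on each array. Their software is unstated in the labels and file headers. The 2% trimmed means were equal on all arrays (2501.3 to 2501.5), so no scaling was added. Intensities under the 20th percentile of the table (201.3) were set to that floor and taken to log2. The 66 control probe sets and those with a mean log2 under the 40th percentile (668.1) were left out. Strains were compared by lmFit and eBayes, using an intensity trend (limma 3.58.1, R 4.3.3), two-sided, tested on simulated data. Genes were named from the platform annotation (1 gene for 10855 probe sets, several for 396, none for 1237), with symbols updated by gene number from RefSeq (10839 matched). Means ± SD are of deposited intensities. The number of arrays limits the precision. The genes described are all members, Ucp1, the called genes of the pathway list and a fixed set of partners, Acsl1 of which had no probe set, and the 6 genes most like the members. The members and lists were chosen with earlier results of these data known. Brown fat and pathway lists share Ucp1, Ucp3, Fabp3 and Ppargc1a, and the adipocyte and pathway lists share Fabp4. Alternatives covered normalization, floor, offset, filter, variance estimation, blocks, threshold and arrays left out.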

Additional observations from a re-analysis of the deposited data

How the results depend on the processing

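The probe sets called over the whole table numbered 184. They were 52 unfiltered, 83 without the intensity trend, 18 in a fit blocking on fluidics station, 7 within station 1, 48 at an adjusted p under 0.01, and 42 to 361 when 1 array was left out. The members called were 0 in the main setting and 0 to 4 when 1 array was left out. They were 3 under quantile normalization, where 202 of 7299 probe sets were called over the whole table. They were 2 with a filter at the 60th percentile (220 of 4909 over the table) and 1 with robust eBayes (197 of 7293). Without the 2 arrays with muscle transcripts 1 member was called, and 123 of 7293 probe sets over the table. Genes of the fat oxidation list called, 4 in the main setting, were 7 under quantile normalization, 7 with the filter at the 60th percentile, 0 unfiltered, 2 without the trend, 0 blocking on station, 0 within station 1, 0 at an adjusted p under 0.01, and 0 to 18 when 1 array was left out. With the fluidics run as a random block, an alternative chosen after seeing the data, 1377 probe sets, 5 members and 28 list genes passed, but the estimated correlation within runs was -0.30, which narrows the standard errors, and every run held 1 strain. With no filter the members' median was -0.25, since the 3 dim probe sets enter it. Acads 161469_r_at turned to 0.043 blocking on station and within station 1 alone. Acadl turned to 0.076 without the 2 arrays with muscle transcripts and ranged from -0.571 to 0.133 when 1 array was left out, above 0 only without BPL 2. With the replicate number as a block 124 probe sets, 0 members and 3 list genes passed; Acot1 lost its call (adjusted p = 0.0591). The labels do not say whether the numbers pair the arrays. Deviations from the strain means correlated at -0.22, -0.08 and 0.01 between arrays of the same number. Between arrays of unlike number the correlations were -0.085 to 0.156. With 3 arrays per strain these values cannot exclude a pairing. The number of members with the BPL order of Ucp1 (7) and with its BPH order (4) was equal under quantile normalization and scaling to one median; the order of all 6 arrays was not recomputed. The chip lot as a block was not run, because all arrays came from 1 lot. Low signal limits Acadvl and the dim Cpt2 probe set.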
